A study of Homo sapiens with 10 samples.

Results

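The 10 genes described here encode the core of the microRNA machinery: the Argonautes AGO1, AGO2, AGO3 and AGO4, the TNRC6 scaffold proteins TNRC6A, TNRC6B and TNRC6C, and the processing factors DICER1, DROSHA and DGCR8. They were taken by symbol from the counts, as 10 of 19215 symbols, and all 10 were among the 13349 genes that passed the low-count filter. In the nucleus DROSHA, with its RNA-binding partner DGCR8, cuts primary transcripts into hairpins, and in the cytoplasm DICER1 cuts the hairpins into short duplexes. An Argonaute takes up 1 strand of the duplex and pairs it with a messenger RNA, and AGO2 is the Argonaute best known for cutting fully paired targets. TNRC6 proteins bind the Argonaute and bring in deadenylases, which shorten the poly(A) tail.

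The study compared 4 groups of libraries. SK-Hep1 cells with a miR-17 TuD gave 2 libraries and SK-Hep1 cells with an NC TuD gave 2, and HepG2 cells gave 3 libraries with a miR-17 TuD and 3 with an NC TuD. A TuD, or tough decoy, is an RNA hairpin that binds a microRNA and keeps it from its targets, here the miR-17 family, and the NC TuD is its negative control. Both lines are labelled hepatocellular carcinoma lines. Cells of all groups received a lentiviral vector (multiplicity of infection 5, polybrene 10 µg/mL, 48 h) and puromycin (1 µg/mL, 2 weeks), grew in 10% serum, and were pooled from resistant colonies. As every arm of a line is a single pooled stable population, decoy effects and chance differences between the populations cannot be told apart. Nothing in the labels says that replicates came from separate cultures, and p-values then measure only the spread between these libraries, which may be technical.

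Libraries held 12884225 to 15076431 gene counts, and the members 67 to 2518 counts each per library. Together the members took 0.0521% to 0.0693% of the gene counts. In HepG2 all 12 hepatocyte markers were at 1 CPM or more (CPM, counts scaled to the library total). Marker values are without TMM factors, which the levels of the members and other named genes include. The 12 summed to 47991 to 50525 CPM in miR-17 TuD libraries and 54333 to 56386 CPM in NC TuD libraries. In SK-Hep1 they summed to 78.1 to 84.0 CPM in miR-17 TuD libraries and 86.7 to 106 CPM in NC TuD libraries, where TTR had no count in either arm and APOA1 none with the miR-17 TuD. The 9 endothelial markers summed to at most 1.19 CPM in SK-Hep1, where PECAM1, KDR and ERG had no count. Of 6 reported miR-17 family targets read beside the decoy, 6 were called higher with the miR-17 TuD in HepG2 and 5 in SK-Hep1. CDKN1A was higher in SK-Hep1 but not called. Over all genes tested, 10.7% were called higher in HepG2 and 0.667% in SK-Hep1. The lists were chosen with earlier results of these data known, so the counts of these targets are no independent check of the decoy.

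The miR-17 family is a group of microRNAs that share a seed, the stretch at bases 2 to 8 that pairs first with a target. Of the 8 mature microRNAs in RefSeq with this seed, miR-17-5p and the 5 from its own cluster and the related clusters are shown, because their seed defines the matches sought in the members. They are from RefSeq on GRCh38.p14, written 5′ to 3′, with the seed in capitals.
hsa-miR-17-5p: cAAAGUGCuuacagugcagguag
hsa-miR-20a-5p: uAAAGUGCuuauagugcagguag
hsa-miR-106b-5p: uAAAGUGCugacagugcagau
hsa-miR-93-5p: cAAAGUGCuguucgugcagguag
hsa-miR-106a-5p: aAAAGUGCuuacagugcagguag
hsa-miR-20b-5p: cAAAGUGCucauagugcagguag

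Matches were sought in the longest annotated 3′ untranslated region (3′UTR) of each gene, on the transcript's strand. The kinds sought were the 7mer-m8 (GCACTTT), the 8mer that adds an A to it (GCACTTTA) and the 7mer-A1 (CACTTTA), and each match was counted under the longest kind. The members held 26 matches, of which 1 was an 8mer, 19 were 7mer-m8 and 6 were 7mer-A1. An 8mer or 7mer-m8 lay in 7 of 10 members, and 25% of the 13240 tested genes with a 3′UTR had such a match. The members' 3′UTRs were also longer, with a median of 4277.5 bases against 1335 bases over the genes tested. Per 10000 bases, the members held 2.87 such matches and the genes tested 1.81. A match is a description of letters and was not tested as a site.

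The following matches, in GENCODE 29 transcripts on the plus strand of GRCh38, are shown for the only 8mer, for 4 of the TNRC6 7mer-m8 matches and for 1 match each of AGO1 and AGO3. The match is in capitals.
TNRC6B 8mer, chr22:40335250-40335279: catggacacagaaactagGCACTTTAgagg
TNRC6B 7mer-m8, chr22:40330054-40330083: taaatagtgtccgtttaaaGCACTTTgtgc
TNRC6A 7mer-m8, chr16:24824480-24824509: gccacccaggacgggccctGCACTTTgaat
TNRC6C 7mer-m8, chr17:78105149-78105178: aatagttctatcatgaaggGCACTTTtcag
TNRC6C 7mer-m8, chr17:78107923-78107952: cttcgctaactttcaccaaGCACTTTgagc
AGO1 7mer-m8, chr1:35920586-35920615: ttaaaatccattgacatttGCACTTTcaaa
AGO3 7mer-m8, chr1:36058387-36058416: ttggattcaggggagctttGCACTTTgtaa

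Over all 3′UTRs, 40.8% of the 5727 8mer or 7mer-m8 matches followed the most frequent flank, read as the 8 bases before the match with at most 2 mismatches. Among the members this flank preceded 7 of 20 matches, 5 in AGO3, 1 in TNRC6B and 1 in AGO4. AGO4 had no other match. AGO3, with a 3′UTR of 16755 bases, kept 3 matches with other flanks and TNRC6B kept 2. AGO1 and TNRC6C had 2 each, AGO2 3 and TNRC6A 1, none of them after this flank. DICER1 and DROSHA had 1 7mer-A1 each, and DGCR8 had no match of any kind.

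**Figure D1:**
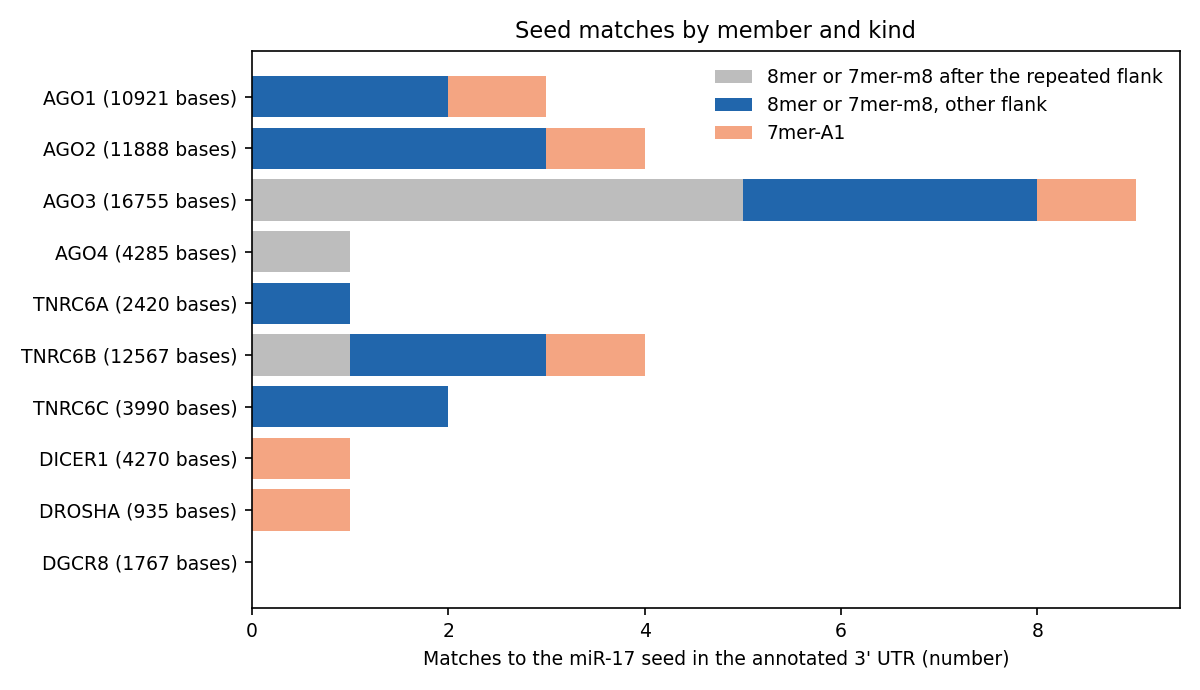
Number of matches to the miR-17 seed in the longest annotated 3′UTR of each member, by kind and by whether the most frequent flank precedes it, with the length of the 3′UTR beside the name. AGO3 holds 9 of the 26 matches, of which 5 follow that flank, and DGCR8 holds none.

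AGO4, AGO1 and AGO3 are neighbours on chromosome 1, on the same strand, at chr1:35808172-35857890, chr1:35869808-35930528 and chr1:35930718-36072500 on GRCh38. The other members lie on other chromosomes. Levels of different genes were set side by side per kilobase of annotated exon, as CPM per kb. On this scale DICER1, DROSHA and TNRC6A were the 3 highest members in every group, DGCR8 the fourth and AGO1 the fifth. In SK-Hep1 with the miR-17 TuD they stood at 7.71 ± 0.127, 11.1 ± 0.679 and 8.49 ± 0.256 CPM per kb, and with the NC TuD at 8.63 ± 0.205, 11.7 ± 0.554 and 8.57 ± 0.0936 CPM per kb (SD, n = 2). In HepG2 with the miR-17 TuD they stood at 13.6 ± 0.894, 12.6 ± 0.726 and 13.3 ± 0.247 CPM per kb, and with the NC TuD at 14.2 ± 0.673, 12.5 ± 0.0314 and 11.5 ± 0.555 CPM per kb (SD, n = 3). On this scale DROSHA was the highest member in SK-Hep1 and DICER1 in HepG2. In HepG2 with the miR-17 TuD the libraries of DICER1 and TNRC6A overlapped, as did those of TNRC6A and DROSHA. Such overlap ignores that the genes were read in the same libraries, and differences within a library were not tested. The lowest member was TNRC6C in SK-Hep1, at 0.446 ± 0.0341 CPM per kb with the miR-17 TuD and 0.668 ± 0.101 CPM per kb with the NC TuD. In HepG2 it was AGO3, at 0.620 ± 0.0713 CPM per kb with the miR-17 TuD and 0.614 ± 0.0198 CPM per kb with the NC TuD. In the NC TuD libraries of SK-Hep1, DICER1 and TNRC6A overlapped, and so did AGO3 and TNRC6C.

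Within the Argonaute family, AGO1 made up the largest share of the level per kb in each group. Its share was 44.6% ± 0.419 in SK-Hep1 with the miR-17 TuD and 41.9% ± 1.49 with the NC TuD (SD, n = 2), and 51.5% ± 0.330 in HepG2 with the miR-17 TuD and 49.8% ± 0.999 with the NC TuD (SD, n = 3). AGO2 held 21.4% and 23.4% in the same arms of SK-Hep1 and 21.7% and 18.6% in those of HepG2. AGO4 held 27.7% and 28.1% in SK-Hep1 and 20.4% and 25.1% in HepG2, and AGO3 between 6.24% and 6.62% in all groups. Within the TNRC6 family, TNRC6A took 76.8% to 82.5%. TNRC6C took 4.34% ± 0.224 with the miR-17 TuD and 6.36% ± 0.812 with the NC TuD in SK-Hep1, against 10.6% ± 0.832 and 12.6% ± 0.492 in the same arms of HepG2.

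These shares depend on the length used, because the 3′UTRs of the Argonautes differ so much. Per kb of coding sequence, AGO4 lay below AGO2 in every group, whereas per kb of exon it did so only in HepG2 with the miR-17 TuD. The shares per kb of coding sequence were 15.5% for AGO4 and 26.2% for AGO2 in SK-Hep1 with the miR-17 TuD, and 13.9% for AGO4 and 22.5% for AGO2 in HepG2 with the NC TuD. On that scale AGO1 had rank 1 of the 10 members in SK-Hep1 with the miR-17 TuD, rank 2 there with the NC TuD and rank 3 in both arms of HepG2. The ends of the order also moved with the length. Per kb of coding sequence TNRC6C was the lowest member in both HepG2 arms too, at 3.37 ± 0.259 CPM per kb (SD, n = 3) with the miR-17 TuD, where AGO3 was next at 5.09 ± 0.585 CPM per kb, and TNRC6A was the highest in that arm, its libraries overlapping those of DICER1. Per kb of the longest transcript the highest member in HepG2 was TNRC6A with the miR-17 TuD and DROSHA with the NC TuD, and DICER1 had rank 3 in both arms. In both SK-Hep1 arms DGCR8 had rank 3 and DICER1 rank 4 on that scale. Per kb of coding sequence TNRC6A had rank 4 and DICER1 rank 5 in both SK-Hep1 arms. AGO1 kept the largest Argonaute share, and TNRC6A the largest TNRC6 share, under each of the 3 lengths tried.

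**Figure D2:**
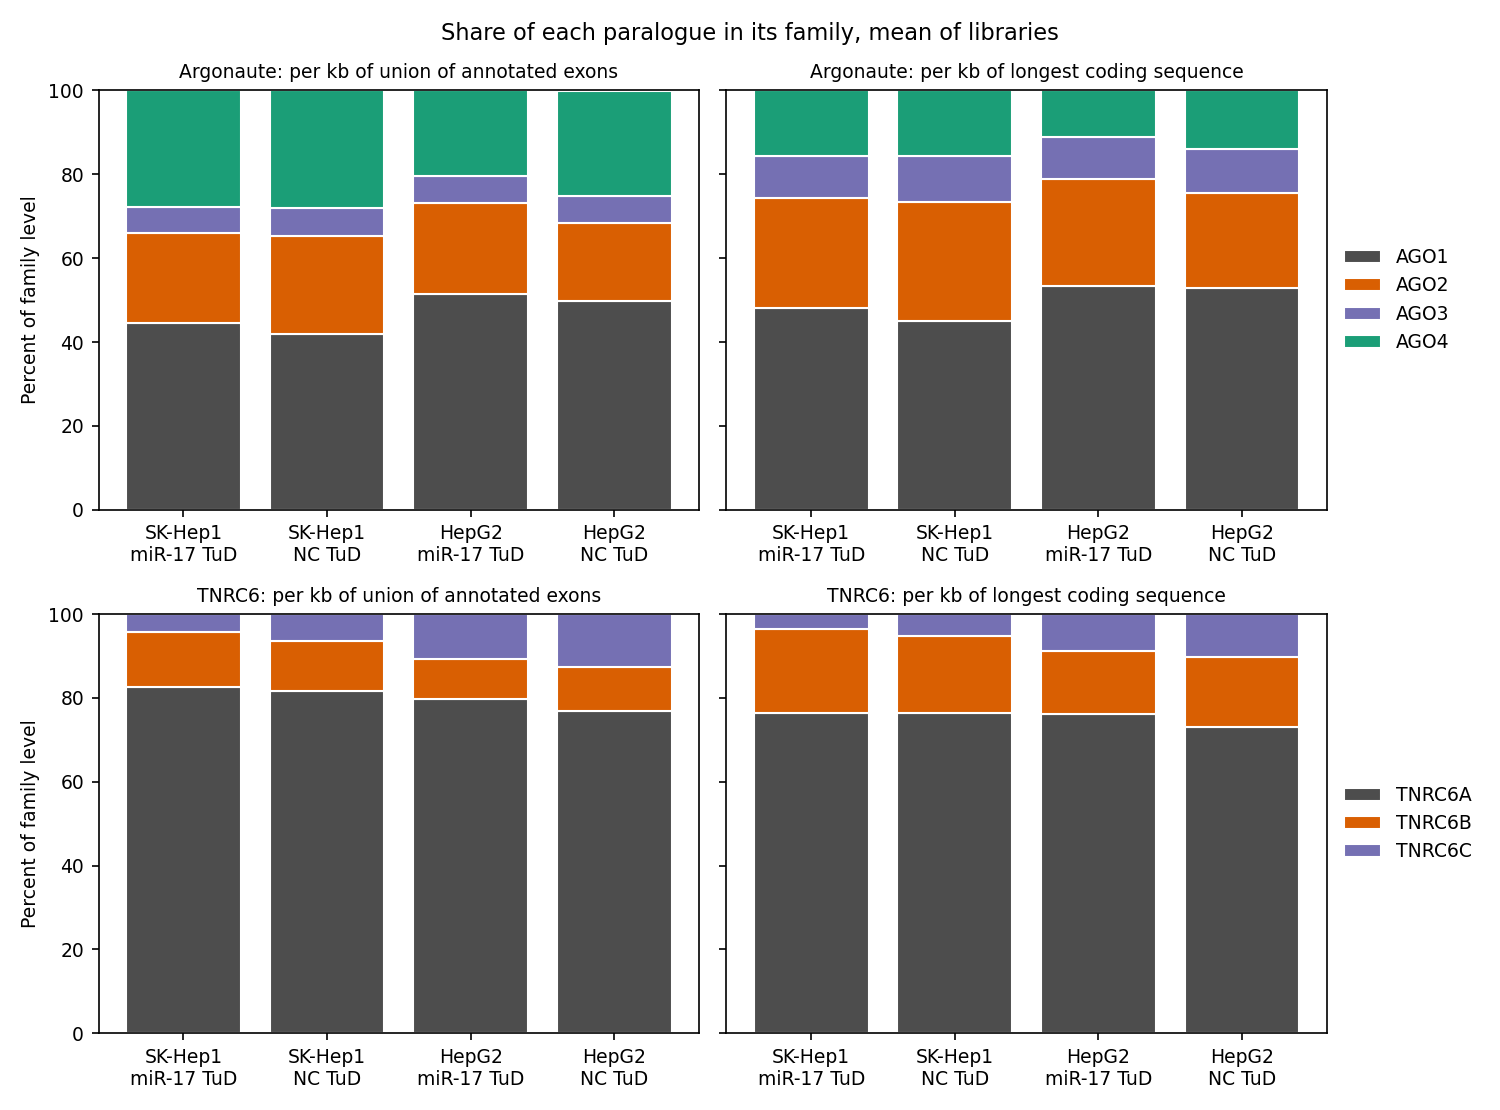
Share of each paralogue in the summed level of its family, in percent, as the mean of the libraries of a group, per kb of annotated exon (left) and per kb of coding sequence (right). AGO1 and TNRC6A take the largest shares in all 4 groups on both scales, while AGO4 lies above AGO2 per kb of exon in all groups except HepG2 with the miR-17 TuD and below it per kb of coding sequence in all 4.

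**Figure D3:**
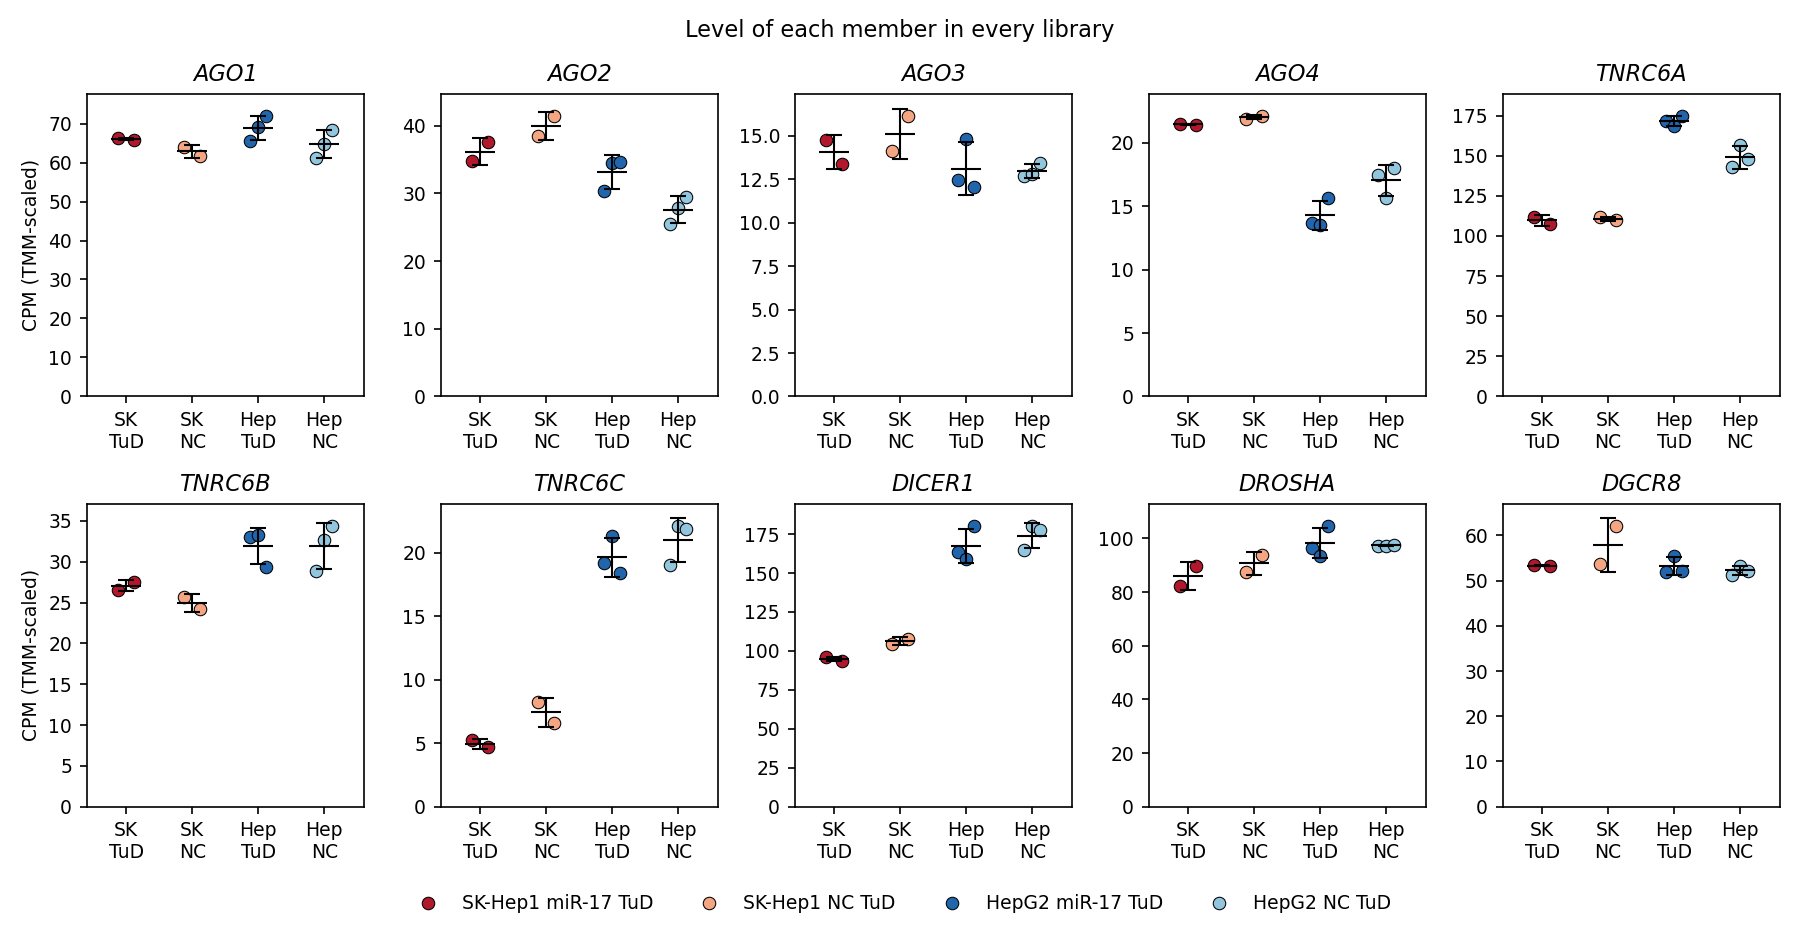
Level of each member in each library, in CPM scaled by TMM factors, with the mean and SD of each group (2 libraries per SK-Hep1 arm, 3 per HepG2 arm). TNRC6A and DICER1 lie lower in all SK-Hep1 libraries than in any HepG2 library, and TNRC6C lies at 4.69 to 8.22 CPM in SK-Hep1 and 18.4 to 22.1 CPM in HepG2.

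The first comparison asked what the decoy arm of HepG2 did to the members. In HepG2 the miR-17 TuD came with more AGO2 and TNRC6A and less AGO4, and the other 7 members were not called. AGO2 stood at 30.3, 34.5 and 34.7 CPM in miR-17 TuD libraries, against 25.5, 27.8 and 29.4 CPM in NC TuD libraries, a log2 fold change of 0.27 ± 0.07 (SE, n = 3 per arm, edgeR adjusted p = 0.00603). Every miR-17 TuD library was higher than every NC TuD library. TNRC6A, the most abundant TNRC6 scaffold here, stood at 171.8, 168.4 and 174.8 CPM with the miR-17 TuD, against 142.8, 156.9 and 147.6 CPM with the NC TuD, a log2 fold change of 0.20 ± 0.04 (edgeR adjusted p = 0.000254). Its arms did not overlap either. AGO4 stood at 13.7, 13.5 and 15.62 CPM with the miR-17 TuD, against 17.5, 15.66 and 18.0 CPM with the NC TuD, a log2 fold change of -0.26 ± 0.09 (edgeR adjusted p = 0.0366). Its arms did not overlap, but their nearest libraries stood at 15.62 and 15.66 CPM. Arms that do not overlap were seen for these 3 of 10 members and for 31% of all genes tested.

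The count of 3 called members stands beside 19.3% of all genes called in this comparison, 10.7% higher and 8.58% lower, so 3 of 10 is near what the whole table shows. The median log2 fold change was 0.01 over the members and 0 over all genes tested. Fewer cells of a kind and less RNA per cell cannot be told apart in such bulk libraries. Among the 12 hepatocyte markers, 8 were lower and 2 higher in the same comparison, among 4 endothelial markers tested 1 was lower, among 2 blood cell markers tested 1 was lower and 1 higher, and among the 9 mesenchymal markers tested 4 were higher, with 15762 to 16055 CPM summed for that list in miR-17 TuD libraries and 14639 to 15932 CPM in NC TuD libraries. The part of these markers in the members' changes was not tested. The AGO2 call was lost without NC TuD replicate 1, where the log2 fold change was 0.21 and the adjusted p 0.0831, within a range of 0.00198 to 0.0831 over 14 alternatives. The AGO4 call was lost in 8 of 14 alternatives, with adjusted p between 0.0133 and 0.152, among them those without miR-17 TuD replicate 1 (0.137), miR-17 TuD replicate 2 (0.152), NC TuD replicate 1 (0.124) and NC TuD replicate 3 (0.136). The TNRC6A call held in all 14, with adjusted p between 2.52e-05 and 0.00915.

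The members that were not called lay close to 0 in HepG2. AGO1 averaged 68.9 ± 3.18 CPM with the miR-17 TuD and 64.7 ± 3.65 CPM with the NC TuD, a log2 fold change of 0.09 with a 95% interval of -0.02 to 0.20. AGO3, the least abundant Argonaute per kb, averaged 13.1 ± 1.51 CPM and 12.99 ± 0.420 CPM in the same arms, with an interval of -0.19 to 0.22. Both overlapped between the arms. TNRC6B averaged 31.9 ± 2.17 CPM with the miR-17 TuD and 32.0 ± 2.84 CPM with the NC TuD, with an interval of -0.14 to 0.15. It carries the members' only 8mer. TNRC6C averaged 19.6 ± 1.51 CPM and 21.0 ± 1.72 CPM in the same arms, with an interval of -0.27 to 0.08. The 3 processing genes moved little in either direction. DICER1 averaged 168 ± 10.99 CPM with the miR-17 TuD and 174 ± 8.27 CPM with the NC TuD, with an interval of -0.15 to 0.03. For DROSHA the means were 98.3 ± 5.65 CPM and 97.4 ± 0.245 CPM, and for DGCR8 53.2 ± 2.00 CPM and 52.3 ± 1.01 CPM, with intervals of -0.09 to 0.11 and -0.09 to 0.15.

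**Figure D4:**
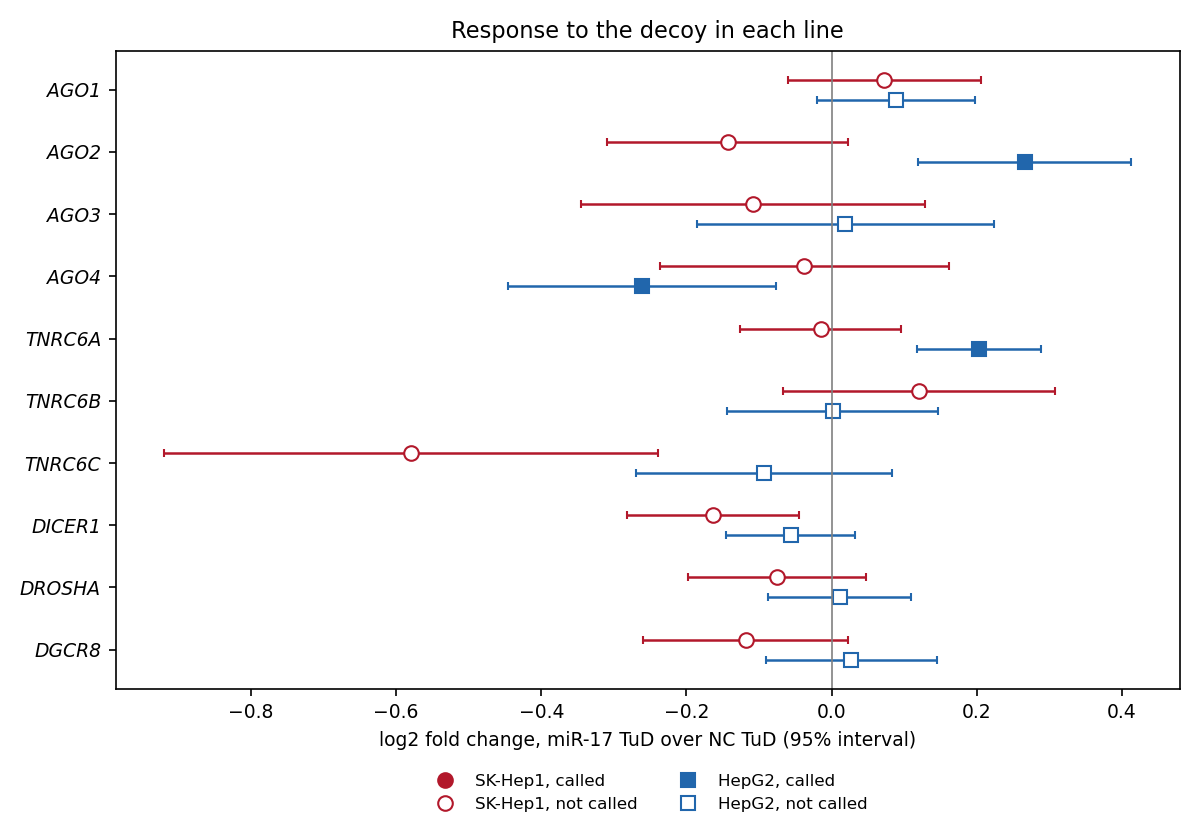
Log2 fold change of each member with its 95% interval, miR-17 TuD over NC TuD, in SK-Hep1 (circles) and HepG2 (squares), where filled symbols were called at an adjusted p below 0.05. In HepG2 AGO2 (0.27), TNRC6A (0.20) and AGO4 (-0.26) are filled, and in SK-Hep1 no member is.

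The same comparison in SK-Hep1 called no member, where 0.869% of all genes were called, 0.667% higher and 0.202% lower. At an unadjusted p below 0.05 by edgeR there were 2 members, TNRC6C and DICER1, beside 8.36% of all genes tested, and with adjustment DESeq2, limma-voom and limma on the deposited log2 values each called 0. TNRC6C had 70 and 67 counts in miR-17 TuD libraries, against 117 and 101 counts in NC TuD libraries, which is 5.23 and 4.69 CPM against 8.22 and 6.63 CPM. Its log2 fold change was -0.58 ± 0.17 with a 95% interval of -0.92 to -0.24 (SE, n = 2 per arm, edgeR adjusted p = 0.0945, and 0.0605 to 0.675 over 12 alternatives). The arms did not overlap, but the gene is the lowest of the members in this line. The exons of TNRC6C overlap those of the antisense gene TNRC6C-AS1 over 1438 of 11111 bases, and the libraries do not record the strand, so reads from there cannot be assigned. Such overlaps with other genes cover 396 exon bases of AGO1, 86 of AGO3, 80 of DICER1 and 47 of AGO2, and none of AGO4, TNRC6A, TNRC6B and DROSHA. DICER1 stood at 95.9 and 93.7 CPM with the miR-17 TuD, against 104 and 108 CPM with the NC TuD, a log2 fold change of -0.16 ± 0.06 (edgeR adjusted p = 0.288).

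AGO2 stood at 34.7 and 37.6 CPM with the miR-17 TuD in SK-Hep1, against 38.4 and 41.4 CPM with the NC TuD, a log2 fold change of -0.14 with a 95% interval of -0.31 to 0.02. TNRC6A stood at 112.0 and 107.3 CPM, against 111.6 and 109.9 CPM, and overlapped between the arms. AGO4 stood at 21.5 and 21.4 CPM with the miR-17 TuD, against 21.9 and 22.1 CPM with the NC TuD. So the 3 genes called in HepG2 had SK-Hep1 intervals that include 0, for TNRC6A -0.13 to 0.10 and for AGO4 -0.24 to 0.16. The remaining members had log2 fold changes between -0.12, for DGCR8, and 0.12, for TNRC6B, with intervals that include 0. Libraries of the arms did not overlap for 7 of 10 members, beside 40.4% of all genes tested. The median log2 fold change was -0.09 over the members and -0.01 over all genes tested. Among the 12 hepatocyte markers, at the low levels given above, 4 were lower and 3 higher in this comparison, and their part in the members' values was not tested.

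The difference of the decoy responses, SK-Hep1 minus HepG2, tests whether the lines responded unequally. It was called for 1 of 10 members, AGO2, and for 3.75% of all genes tested, 1.24% higher and 2.51% lower. For AGO2 the difference was -0.41 ± 0.11 on the log2 scale, with a 95% interval of -0.63 to -0.19 (edgeR adjusted p = 0.0220). The miR-17 TuD libraries of AGO2 lay below the NC TuD libraries in SK-Hep1, where its change was not called, and above them in HepG2. The call was lost in 6 of 17 alternatives, within a range of adjusted p of 0.00972 to 0.156, among them those without HepG2 NC TuD replicate 1 (0.109), SK-Hep1 NC TuD replicate 2 (0.156) and SK-Hep1 miR-17 TuD replicate 1 (0.147), and with DESeq2 (0.0692) or limma on the deposited log2 values (0.0954). For TNRC6A the difference was -0.22 ± 0.07 (edgeR adjusted p = 0.0666), and without HepG2 NC TuD replicate 2 its adjusted p was 0.0222, within a range of 0.0222 to 0.318 over 17 alternatives. TNRC6C differed by -0.49 ± 0.19 (edgeR adjusted p = 0.170) and AGO4 by 0.22 ± 0.14 (edgeR adjusted p = 0.455). In the same test 4 hepatocyte markers were lower and 3 higher of 12, and 4 of 9 mesenchymal markers were lower, and their part in the AGO2 value was not tested. The other 6 members lay between -0.15 and 0.12, with adjusted p from 0.481 to 0.998.

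In the members' summed level the lines differed more than the arms, though this did not hold for every member, for example AGO1. The members' summed level was 514 ± 1.24 CPM in SK-Hep1 and 672 ± 19.3 CPM in HepG2 with the miR-17 TuD, and 538 ± 11.5 CPM in SK-Hep1 and 648 ± 23.9 CPM in HepG2 with the NC TuD. The direction differed by family. The Argonautes summed to 138 ± 0.673 CPM in SK-Hep1 and 129 ± 6.46 CPM in HepG2 with the miR-17 TuD, and to 140 ± 2.10 CPM and 122 ± 6.35 CPM with the NC TuD. The TNRC6 genes summed to 142 ± 2.98 CPM in SK-Hep1 and 223 ± 0.716 CPM in HepG2 with the miR-17 TuD, and to 143 ± 3.43 CPM and 202 ± 10.6 CPM with the NC TuD. DICER1, DROSHA and DGCR8 together came to 234 ± 3.54 CPM in SK-Hep1 and 319 ± 15.5 CPM in HepG2 with the miR-17 TuD, and to 255 ± 12.8 CPM and 324 ± 9.27 CPM with the NC TuD.

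Between the NC TuD cells of the lines, 7 of 10 members were called, beside 86.7% of all genes tested (43.9% higher, 42.8% lower), so a call by itself separates the members little from the table. In SK-Hep1 AGO2, AGO4 and DGCR8 were higher and TNRC6A, TNRC6B, TNRC6C and DICER1 lower. Between the miR-17 TuD cells, 6 of 10 members were called, beside 87.3% of all genes (44.1% higher, 43.1% lower), with AGO4 higher and TNRC6A, TNRC6B, TNRC6C, DICER1 and DROSHA lower in SK-Hep1. Libraries of the lines did not overlap for 9 of 10 members with the NC TuD and for 7 of 10 with the miR-17 TuD, beside 90.4% and 90.3% of all genes tested. The members' median log2 fold change was -0.12 with the miR-17 TuD and -0.07 with the NC TuD, against 0.02 over all genes in each arm. No library enters both of these comparisons.

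TNRC6C showed the largest gap among the members. Its log2 fold change, SK-Hep1 over HepG2, was -1.99 ± 0.13 with the miR-17 TuD (edgeR adjusted p = 9.53e-21) and -1.50 ± 0.12 with the NC TuD (edgeR adjusted p = 1.28e-17). The highest SK-Hep1 library stood at 8.22 CPM and the lowest HepG2 library at 18.4 CPM. The other scaffolds were lower as well. TNRC6A differed by -0.65 ± 0.05 with the miR-17 TuD (edgeR adjusted p = 4.00e-18) and by -0.43 ± 0.05 with the NC TuD (edgeR adjusted p = 1.52e-11). TNRC6B stood at 26.6 and 27.6 CPM in SK-Hep1 with the miR-17 TuD, against 33.0, 33.3 and 29.4 CPM in HepG2, a log2 fold change of -0.24 ± 0.08 (edgeR adjusted p = 0.00699). Without SK-Hep1 miR-17 TuD replicate 1 this call was lost, at an adjusted p of 0.0603 in a range of 0.00135 to 0.0603 over 13 alternatives. With the NC TuD, TNRC6B differed by -0.36 ± 0.08 (edgeR adjusted p = 0.000108).

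DICER1 was lower in SK-Hep1 in both arms, by -0.82 ± 0.05 on the log2 scale with the miR-17 TuD (edgeR adjusted p = 3.03e-21) and by -0.71 ± 0.05 with the NC TuD (edgeR adjusted p = 5.26e-19). It stood at 93.7 to 108 CPM in the SK-Hep1 libraries, against 159 to 180.1 CPM in the HepG2 libraries. DROSHA, which acts a step earlier, had a smaller gap. It stood at 82.3 and 89.8 CPM in SK-Hep1 with the miR-17 TuD, against 96.6, 93.6 and 104.6 CPM in HepG2, a log2 fold change of -0.19 ± 0.06 (edgeR adjusted p = 0.00160). Without SK-Hep1 miR-17 TuD replicate 1 the DROSHA call was lost, at an adjusted p of 0.0916 in a range of 0.000387 to 0.0916. With the NC TuD it stood at 87.6 and 93.7 CPM in SK-Hep1, against 97.2, 97.3 and 97.7 CPM in HepG2, a log2 fold change of -0.10 ± 0.06 (edgeR adjusted p = 0.0764), and without SK-Hep1 NC TuD replicate 2 the adjusted p was 0.0458, in a range of 0.0458 to 0.443.

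DGCR8, the partner of DROSHA, stood at 53.6 and 62.1 CPM in SK-Hep1 with the NC TuD, against 51.4, 53.4 and 52.1 CPM in HepG2, a log2 fold change of 0.15 ± 0.06 (edgeR adjusted p = 0.0298). That gap was carried by 1 library. Without SK-Hep1 NC TuD replicate 2 it was 0.04 (adjusted p = 0.658), without HepG2 NC TuD replicate 1 the adjusted p was 0.0783, and without HepG2 NC TuD replicate 3 it was 0.0533, in a range of 0.00301 to 0.658. With the miR-17 TuD the libraries overlapped, at 53.5 and 53.2 CPM in SK-Hep1, against 51.9, 55.5 and 52.2 CPM in HepG2. DGCR8 shares 701 of 7315 exon bases with other genes, among them TRMT2A on the opposite strand, which had 603 to 680 counts in SK-Hep1 and 408 to 477 counts in HepG2 with the NC TuD. Its part in the DGCR8 value was not tested.

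Among the Argonautes, AGO4 was higher in SK-Hep1 in both arms, by 0.59 ± 0.10 on the log2 scale with the miR-17 TuD (edgeR adjusted p = 1.92e-07) and by 0.37 ± 0.09 with the NC TuD (edgeR adjusted p = 0.000340). AGO2 was higher by 0.54 ± 0.08 with the NC TuD (edgeR adjusted p = 1.19e-08), whereas with the miR-17 TuD the gap was 0.13 with a 95% interval of -0.03 to 0.28 (edgeR adjusted p = 0.123). The change between these 2 gaps is the difference of responses given for AGO2. AGO1 stood between 61.1 and 72.0 CPM in all 10 libraries, and its line differences were -0.06 with the miR-17 TuD and -0.04 with the NC TuD, with intervals of -0.18 to 0.06 and -0.16 to 0.08. AGO3 stood at 14.1 and 16.2 CPM in SK-Hep1 with the NC TuD, against 12.7, 12.8 and 13.5 CPM in HepG2 (edgeR adjusted p = 0.0542), and the adjusted p was 0.0283 without SK-Hep1 NC TuD replicate 1, in a range of 0.0166 to 0.420. With the miR-17 TuD its libraries overlapped between the lines.

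**Figure D5:**
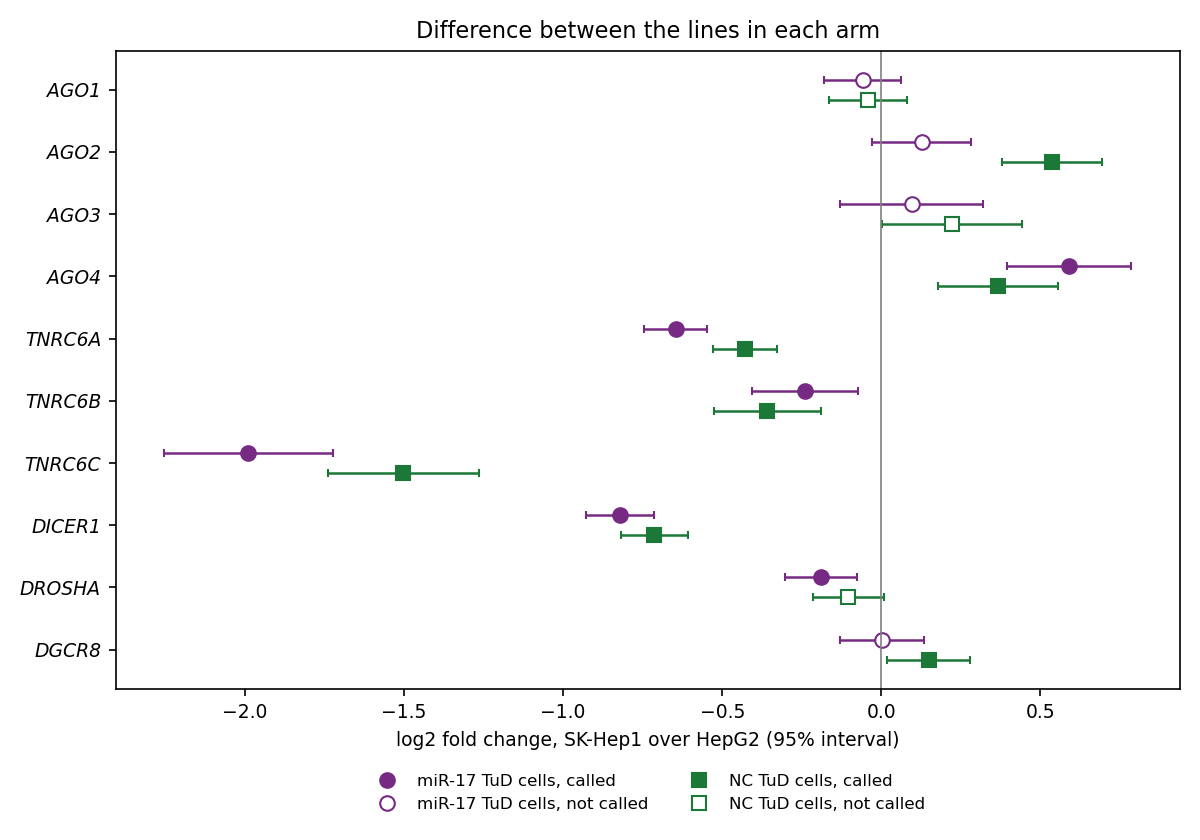
Log2 fold change of each member with its 95% interval, SK-Hep1 over HepG2, in miR-17 TuD cells (circles) and NC TuD cells (squares), where filled symbols were called at an adjusted p below 0.05. The 3 TNRC6 genes and DICER1 lie left of 0 and AGO4 right of 0 in both arms, while AGO2 is filled with the NC TuD alone.

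The profile of each member over the 10 libraries, as log2(CPM + 0.5) centred on its mean, was set against those of the other genes by the root mean square difference. Among the members, AGO3 and DGCR8 lay nearest to each other (0.0735), and AGO1 and DROSHA were each other's nearest member (0.0971), as were TNRC6A and DICER1 (0.162). The nearest member to AGO2 was AGO3 (0.161), to AGO4 AGO3 (0.223), to TNRC6B DROSHA (0.142) and to TNRC6C DICER1 (0.472). TNRC6C was the farthest member for each of the others except DICER1. Outside the members, AGO2 lay nearest to MED12 (0.0743), TANC1 (0.0764) and CCNK (0.0784). For TNRC6B these were COG4 (0.0580), MYL12A (0.0622) and GRHPR (0.0634), for DICER1 UBE2O (0.0458), RAB4A (0.0479) and PCNA (0.0508), and for DROSHA GDAP2 (0.0370), GRSF1 (0.0421) and ADNP (0.0429).

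Genes that work with the members were read from 5 lists. In HepG2 with the miR-17 TuD, the list of nuclear processing and export had 6 of 18 genes lower and none higher, and the list of Dicer partners, Argonaute loading and import had 4 of 13 lower and none higher. Over all genes tested 8.58% were called lower and 10.7% higher. The median log2 fold changes of the lists were -0.06 and -0.05, beside 0 over all genes. Among the nuclear proteins, HNRNPA1, which binds the primary transcript of miR-18a, changed by -0.18 ± 0.03 (edgeR adjusted p = 1.45e-05), HNRNPA2B1 by -0.14 ± 0.03, ERH by -0.19 ± 0.04 and the splicing factor SRSF3 by -0.12 ± 0.04. Among the chaperones that help load Argonaute, FKBP4 changed by -0.21 ± 0.04, HSP90AB1 by -0.09 ± 0.03, PTGES3 by -0.10 ± 0.04 and STIP1 by -0.09 ± 0.03.

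Of the deadenylation, decapping and decay list, 3 of 32 genes were lower in that comparison and none higher, namely the decapping factor DCP1A (-0.22 ± 0.06) and the CCR4-NOT subunits CNOT7 (-0.13 ± 0.05) and RQCD1 (-0.12 ± 0.04). Of the tailing, trimming and turnover list, 3 of 11 genes tested were lower, the let-7 inhibitor LIN28B (-0.21 ± 0.05), PNPT1 (-0.17 ± 0.05) and PAPD4 (-0.17 ± 0.06), and ZSWIM8, which acts in target-directed microRNA decay, was higher (0.15 ± 0.06). Of the proteins that bind or modify Argonaute or TNRC6, 3 of 16 were higher, HIF1AN (0.30 ± 0.05), EGFR (0.24 ± 0.07) and LIMD1 (0.16 ± 0.05), and P4HA1, a prolyl hydroxylase subunit, was lower (-0.26 ± 0.05). XPO5, which exports hairpins, averaged 194 CPM with the miR-17 TuD and 199 CPM with the NC TuD, and XPO5, TARBP2, DDX6 and CNOT1 were not called. The medians of these 3 lists were -0.04, -0.02 and -0.04.

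Several of these calls were lost when 1 library was left out, for most of them whichever of several libraries it was. Those of HNRNPA1, ERH, HNRNPA2B1, FKBP4, LIN28B, HIF1AN and P4HA1 held whichever HepG2 library was left out, though that of LIN28B was lost on the deposited log2 values (adjusted p = 0.762, the highest of 14 alternatives, whose lowest was 4.03e-05). Without miR-17 TuD replicate 1 the calls of HSP90AB1, PTGES3, STIP1, CNOT7, RQCD1, PNPT1, PAPD4, ZSWIM8, EGFR and LIMD1 were lost, and without NC TuD replicate 1 the same genes except PNPT1. Without miR-17 TuD replicate 2, HSP90AB1, PTGES3, STIP1, CNOT7, RQCD1 and PAPD4 were lost, and without miR-17 TuD replicate 3, STIP1, ZSWIM8 and EGFR. Without NC TuD replicate 2, SRSF3, HSP90AB1, PTGES3, STIP1, DCP1A, CNOT7, RQCD1, PAPD4 and ZSWIM8 were lost, and without NC TuD replicate 3, STIP1, RQCD1, EGFR and LIMD1. The counts of called genes then ranged from 3 to 6, 1 to 3, 1 to 4, 1 to 4 and 3 to 4 in the order of the lists. In SK-Hep1 edgeR called 0 of the 90 genes tested in the 5 lists, with 8 at an unadjusted p below 0.05, near the 8.36% of all genes at that level, and DESeq2, limma-voom and limma on the deposited values also called 0. In a fit of the SK-Hep1 libraries alone, 1 nuclear gene and 1 binding protein were called. The difference of responses was called for PNPT1, 1 of 11 genes tested in the tailing, trimming and turnover list. Of 16 binding proteins, 1 was called higher, P4HA1, and 2 lower, LIMD1 and EGFR. No gene of the other lists was called, beside 3.75% of all genes tested.

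Between the lines most of these lists held large differences in both directions, while the tailing, trimming and turnover list was mostly lower in SK-Hep1. Over all genes tested, 43.9% were called higher and 42.8% lower with the NC TuD, and 44.1% and 43.1% with the miR-17 TuD. With the NC TuD, 9 of 18 nuclear genes were higher and 7 lower in SK-Hep1, and 9 and 6 with the miR-17 TuD. RAN, the GTPase of nuclear export, stood at 878 ± 17 CPM in SK-Hep1 and 491 ± 5.22 CPM in HepG2 with the miR-17 TuD. SRRT differed by 0.88 ± 0.04 in that arm and ADAR by 0.46 ± 0.04, and METTL3 by -0.61 ± 0.05 with the NC TuD. The importin IPO8, which carries Argonaute into the nucleus, stood at 132 ± 4.84 CPM in SK-Hep1 and 65.7 ± 4.38 CPM in HepG2 with the miR-17 TuD. PTGES3 differed by 0.81 ± 0.04 in that arm, HSPA8 by 0.42 ± 0.04 and DNAJA2 by -1.11 ± 0.06. Of 13 genes in the Dicer partner list, 7 were higher and 5 lower in each arm.

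In the decay list, 13 of 32 genes were higher and 15 lower in SK-Hep1 with the miR-17 TuD, and 11 and 15 with the NC TuD. CNOT11 differed by -1.73 ± 0.06 with the miR-17 TuD, TOB1 by -1.68 ± 0.08, CNOT1, the scaffold of CCR4-NOT that TNRC6 binds, by -0.66 ± 0.04, and the poly(A)-binding PABPC1 by 0.74 ± 0.03. The tailing and turnover list was mostly lower in SK-Hep1, 8 of 11 lower and 1 higher with the miR-17 TuD, and 9 and 0 with the NC TuD. LIN28B had 1 and 2 counts in SK-Hep1 and 1662 to 1674 counts in HepG2 with the miR-17 TuD, and TRIM71, a let-7 target, had 0 to 1 counts and 1593 to 2045 counts. PARN and PAPD5, enzymes of the poly(A) tail, differed by -1.11 ± 0.06 and -1.23 ± 0.07 in that arm. Among the binding proteins 7 of 16 were higher and 7 lower with the miR-17 TuD, and 6 and 7 with the NC TuD. EGFR, a receptor kinase reported to act on AGO2, stood at 189 ± 4.09 CPM in SK-Hep1 and 25.5 ± 2.58 CPM in HepG2 with the miR-17 TuD. FXR2 differed by 1.65 ± 0.06 and P4HA1 by -1.17 ± 0.06 in that arm.

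The 6 reported targets used to check the decoy gave these log2 fold changes with the miR-17 TuD in HepG2: ZNFX1 0.85 ± 0.05, RGMB 0.63 ± 0.08, TGFBR2 0.44 ± 0.04, CDKN1A 0.40 ± 0.04, MINK1 0.38 ± 0.05 and PKD2 0.36 ± 0.08. In SK-Hep1 they were 0.49 ± 0.05 for ZNFX1, 0.40 ± 0.05 for RGMB, 0.61 ± 0.05 for TGFBR2, 0.45 ± 0.06 for MINK1 and 0.31 ± 0.08 for PKD2, and 0.16 ± 0.04 for CDKN1A (edgeR adjusted p = 0.0516). The PKD2 call in SK-Hep1 was lost without any 1 of the 4 libraries. The members' called upward changes in HepG2 were 0.20 for TNRC6A and 0.27 for AGO2. These 6 targets were chosen with earlier results of these data known. They are therefore no independent check of the decoy, and no measure for the size of the members' changes.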

How the data were processed

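The authors deposited raw counts by gene, 1 file per library, together with log2 values of the same libraries in a single matrix. Per the submitters' processing notes, STAR, SAMtools and HTSeq 0.5.4p5 were used with hg19, while the series text names Bowtie, TopHat, RSEM and a mouse genome, and the symbols are human. The kit, TruSeq RNA v2, does not record the strand, and 150 ng of RNA gave 50 bp read pairs, per the labels. Entries that name no gene were left out, of which reads outside genes made up 11.6% to 14.1% of a column.

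The counts went into edgeR 4.0.16 (R 4.3.3) with filterByExpr, TMM factors and 1 robust quasi-likelihood fit of all 10 libraries with 4 group means, two-sided. Called means a p below 0.05 after Benjamini-Hochberg adjustment over the 13349 genes tested. Counts of list or marker genes given as higher or lower are counts of called genes. SE is the log2 fold change over the root of F, and levels are CPM with TMM factors, except for the marker values, which use total gene counts alone. Between replicates, chi-square per degree of freedom was 1.4 to 3.7, above counting error. The procedure was also run on simulated counts, and as the outcome is not given here, no call rests on it. Alternatives were DESeq2 1.42.0, limma-voom and limma on the deposited log2 values (limma 3.58.1), other scalings, no filter, the compared libraries alone, a replicate block and leaving out each library.

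Symbols were matched to GENCODE 29 on GRCh38, 18293 directly and 747 through an older symbol, and positions are on that build. Seed matches were sought with scripts in Python 3.11.15.

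The members and lists were chosen with earlier results of these data known. Named genes were the members, up to 4 called genes per list and comparison with the smallest adjusted p, XPO5, TARBP2, DDX6 and CNOT1, the 6 decoy check genes, and the nearest profiles. Some genes and sequences that this rule covers are not reported here.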

Additional observations from a re-analysis of the deposited data

Results flagged for a closer look

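Among the members, the named genes of the 5 lists and the decoy check genes, 7 were called for a difference between the lines. List genes were named because they were called, and PNPT1, P4HA1, LIMD1 and EGFR were so in this same test. The 7 therefore cannot be set against the 3.75% of all genes tested that were called in it. The decoy response of these 7 genes differed between the lines by the test of the difference itself, SK-Hep1 minus HepG2 (log2 scale, edgeR). AGO2 differed by -0.41 ± 0.11 (adjusted p = 0.0220), with 2 of 2 SK-Hep1 miR-17 TuD libraries below both NC TuD libraries and 3 of 3 HepG2 miR-17 TuD libraries above all NC TuD libraries. Arms did not overlap for 40.4% of all genes tested in SK-Hep1 and for 31% in HepG2. The AGO2 change within SK-Hep1 was not called (edgeR adjusted p = 0.680). EGFR differed by -0.33 ± 0.09 (adjusted p = 0.0254) and LIMD1 by -0.29 ± 0.08 (adjusted p = 0.0219). P4HA1 differed by 0.41 ± 0.09 (adjusted p = 0.00162) and PNPT1 by 0.25 ± 0.07 (adjusted p = 0.0425). Of these, the P4HA1 call held in all 17 alternatives, while the AGO2, LIMD1, EGFR and PNPT1 calls were lost in 6, 7, 8 and 11 of them. Among the decoy check genes, ZNFX1 differed by -0.37 ± 0.07 (adjusted p = 0.00101), held in all 17 alternatives, and CDKN1A by -0.24 ± 0.06 (adjusted p = 0.00604), lost in 2 of them.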

How the results depend on the processing

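Of 690 values of members under other settings, 642 kept their direction and their side of the threshold, 23 lost and 6 gained a call, and 19 changed sign, none of them called. Log2 fold changes that changed sign had these ranges without 1 library. In HepG2, AGO3 ranged from -0.083 to 0.074, TNRC6B from -0.0689 to 0.0589, DROSHA from -0.0346 to 0.0452, DGCR8 from -0.00496 to 0.0459, DDX6 from -0.0428 to 0.0397 and TARBP2 from -0.133 to 0.00282. In SK-Hep1, TNRC6A ranged from -0.0437 to 0.0134 and DDX6 from -0.0391 to 0.0378. The AGO1 difference of responses ranged from -0.0589 to 0.0245, and the DGCR8 line difference with the miR-17 TuD from -0.0169 to 0.0337. Under other settings, TNRC6B in HepG2 was -0.00135 on the deposited log2 values, and TNRC6A in SK-Hep1 was 0.000277 with DESeq2 size factors and 0.000283 with DESeq2. DDX6 in SK-Hep1 was -0.00147 with no filter, and the AGO1 line difference with the NC TuD was 0.014 on total counts. The DGCR8 line difference with the miR-17 TuD was -0.000554 with no filter, -0.00345 on the compared libraries alone and -0.000873 on the deposited values.

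Without 1 library, called members numbered 1 to 3 in HepG2 and 0 to 2 for the difference of responses. For the difference they numbered 2 on total counts and 0 with DESeq2, the deposited values or the replicate block. All genes called numbered 116 in SK-Hep1 and 500 for the difference as reported, 58 and 227 with the block, and 292 in SK-Hep1 on its own libraries. Replicate numbers did not mark pairs in HepG2, where same-numbered libraries correlated by -0.209 to 0.065 and differently numbered ones by -0.065 to 0.227. In SK-Hep1 same-numbered libraries correlated by -0.064 and differently numbered ones by 0.064. With 2 libraries per arm these values mirror each other by construction. Without 1 library all genes called numbered 49 to 70 in SK-Hep1 and 266 to 613 for the difference. The 20 seed matches became 1 as 8mers and 13 with other flanks. Other flanks and coding length were chosen after seeing the data. The cause of these changes was not tested. The compared libraries alone gave no other fit for the difference, which uses all 10. Counts of 67 to 117 limit TNRC6C in SK-Hep1.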
